A study of Mus musculus with 4 samples.

Results

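The cells described here are young neurons and still dividing cells of the medial ganglionic eminence (MGE). They had transcripts of Lhx6 and none of Lhx8, as precursors of cortical and striatal interneurons would have. Mki67, a marker of dividing cells, was found in 12.9% of them. The cells were selected on measured values in the MGE library. A cell entered with Dcx, a microtubule protein of migrating neurons, above 1.5 on the scale ln(1 + UMIs per 10000), with at least 1 UMI (unique molecular identifier, 1 counted transcript molecule) of Lhx6, with 0 UMIs of Lhx8 and with at least 1 UMI of Sst, Maf or Erbb4. The gate selected 697 of 2272 high-Dcx cells of MGE, or 30.7% (exact binomial 95% interval 28.8–32.6%), and these came from 4852 kept MGE cells and 16544 kept cells in all 4 libraries. The other 1575 high-Dcx cells of MGE served for comparison. Of these, 401 had Lhx6, no Lhx8 and none of the other 3 gate genes, 771 had both Lhx6 and Lhx8, 86 had Lhx8 alone, and 317 had neither.

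The study profiled wild-type (wt) mouse embryos at E12.5, with 1 droplet library (10x Genomics) each from the MGE, the lateral (LGE) and caudal (CGE) ganglionic eminences and the dorsal cortex (CTX). No allele or agent was applied to any group, each library held tissue pooled over embryos, and the mouse forebrain at this age is still producing neurons from dividing progenitors. The mice were C57BL/6 by the study's methods. The labels mention a live-cell sort, whereas in the methods only reporter-line cells, not used here, went through the sorter, and whether a sort set any share of cells was not tested. Region and library cannot be told apart with 1 library per region, so no test was made, and every interval below reflects the counting of molecules or cells and says nothing of variation among embryos.

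In the embryonic brain, Nkx2-1 specifies the MGE and switches on the LIM-homeodomain genes Lhx6 and Lhx8. Neurons that keep Lhx6 and lose Lhx8 are known to leave the MGE tangentially and to become the somatostatin and parvalbumin interneurons of cortex and striatum, with help from Sox6, Satb1 and Maf. Neurons that keep Lhx8, often with Isl1, Zic or Gbx factors, contribute to cholinergic and pallidal neurons of the basal forebrain.

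Whole libraries ranged from 4301 to 6953 barcodes and from 31451467 to 49794765 UMIs, and the filters kept 3248 to 4852 cells. The selected cells held 4442163 UMIs, with a median of 6030 UMIs and 2632 genes per cell, beside 6505 UMIs and 2740 genes in the other high-Dcx cells of MGE. Of 24127 distinct barcodes, 66 occurred in more than 1 library, and these included the barcodes of 4 selected cells. Marker lists of glutamatergic neurons, Cajal-Retzius cells, endothelial cells, pericytes or mesenchyme, and microglia or macrophages had 0 members at 20 UMIs per 1000000 summed UMIs (CPM) in the selected cells or in the other high-Dcx cells of MGE. The embryonic globin Hbb-y, the 1 red blood cell gene at that level, had 56.5 CPM in the selected cells and 48.4 CPM in the others.

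Promoter sequence is shown for Sst and Npy, since these neuropeptide genes mark later interneurons and the selected cells are read by them below, few having Sst and many Npy. Windows of 250 bases before the RefSeq start site (GRCm38.p6) were searched on both strands for TGACGTCA, the full cyclic AMP response element, and for TAATTA, a core that homeodomain proteins bind. The Sst window held 1 TGACGTCA, whose first base lies 48 bases before the start site, while the Npy window held neither motif. Among all 32851 RefSeq promoter windows of that length, 1.55% held TGACGTCA and 4.84% held TAATTA. The windows of Nxph1, Lhx6 and Erbb4 held neither. In the GENCODE annotation, all 250 bases of the Nxph1 window and 114 bases of the Sst window, the motif included, lie in exons. These bases are therefore transcribed sequence by that annotation. Capitals mark the motif in the 30 bases of Sst (chr16:23890874-23890903, minus strand), and the Npy window (chr6:49822460-49822709, plus strand) ends 1 base before the RefSeq start. A match is a description of letters only.
Sst: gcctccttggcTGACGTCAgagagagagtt
Npy: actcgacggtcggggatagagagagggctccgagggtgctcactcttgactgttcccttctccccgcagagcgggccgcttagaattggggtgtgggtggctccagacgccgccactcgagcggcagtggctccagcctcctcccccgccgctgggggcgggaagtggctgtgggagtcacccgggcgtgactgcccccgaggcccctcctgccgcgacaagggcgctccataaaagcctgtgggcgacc

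The gate genes themselves describe the cells and are no finding. Lhx6 was held as 1 UMI by 214 selected cells, as 2 UMIs by 167 and as 3 or more by 316, with a median of 2.00 and a maximum of 17. Dcx ran from 1.500 to 3.49 with a median of 2.22, and the limit corresponds to 348 CPM. Just inside the limit, 42 selected cells had Dcx of 1.5 to 1.6, and just outside, 40 cells with 1.4 to 1.5 met all other gates. A further 106 cells met every gate except for exactly 1 UMI of Lhx8, and 293 had 2 or more, up to 28. Among all high-Dcx cells with Lhx6, 58.7% had 0 Lhx8 UMIs.

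Of the 3 genes of which 1 was required, Maf and Erbb4 brought in nearly all cells. Maf, a bZIP transcription factor of MGE interneurons, had a UMI in 83.6% (80.7–86.3%) of selected cells, and Erbb4, the neuregulin receptor of migrating interneurons, in 57.8% (54.1–61.5%). Sst, the somatostatin precursor that marks a main class of later interneurons, was found in 43 of the 697 cells, or 6.17% (4.50–8.22%). Thus 281 cells (40.3%) entered with Maf alone, 267 (38.3%) with Maf and Erbb4, 106 (15.2%) with Erbb4 alone, and 2 with Sst alone. Against the label's markers, Lhx6, Maf, Erbb4 and Nxph1 were common in these cells, and Sst was not.

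Sst was concentrated in few cells. The 43 positive cells held 629 UMIs, the highest cell 92, and the 10 highest cells 71.2% of all. High-Nestin MGE cells, progenitors that should lack these genes, had Sst in 0.385% of 520 cells, Maf in 2.12% and Erbb4 in 4.04%, at a median depth of 9940 UMIs. Each of these shares lay below that of the selected cells, at greater depth. Thinned to 3000 UMIs per cell, which left out 14 selected cells, the share with Sst was 5.27%.

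Transcription factors of the MGE lineage were mostly shared between the selected cells and the other high-Dcx cells of MGE. Of 18 measured genes of a list of MGE and pan-GABAergic factors, 2 were at least 2-fold higher in the selected cells, Mef2c among them, and 0 were lower, with a median log2 ratio of 0.16 beside 0.00 over all 6673 genes. Over all genes, 20 (0.300%) were 2-fold higher and 68 (1.02%) were 2-fold lower. These ratios are of summed UMIs in CPM, and since the cells were chosen by expression they describe the cells and are no test.

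Mef2c (chromosome 13, 83504034–83667080, plus strand, GRCm38), a MADS-box factor known from interneuron and neuron maturation, had 86.7 CPM in the selected cells and 24.9 CPM in the others. That is a ratio of 3.48 (exact Poisson 95% interval 2.97–4.08). It was detected in 24.8% of selected cells and 10.2% of the others, or 17.4% and 6.12% after thinning. It was also detected in the cells without Lhx6 and Lhx8, where it had 71.1 CPM. The ratios depended on the Lhx6 gate. With at least 2 Lhx6 UMIs required, the 214 cells with 1 Lhx6 UMI count as comparison cells and 483 selected cells remain. The log2 ratio of Mef2c then was 0.99, below 2-fold, in place of 1.76, and of the 12 higher genes described here Calb1 was the 1 that stayed past 2-fold.

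Other factors differed by less than 2-fold. Sox6, which acts downstream of Lhx6, had 325 CPM in the selected cells and 250 CPM in the others, and was detected in 76.6% and 65.9% of cells. Zeb2, a zinc finger factor that directs MGE cells to cortex, had 900 CPM against 506 CPM (1.78, 1.71–1.85). Satb1, a chromatin organizer of Sst interneurons, had 156 CPM against 114 CPM. Nkx2-1, the regional determinant that cortical interneurons are known to switch off, was lower, with 434 CPM against 729 CPM (0.596, 0.567–0.626). The general GABAergic factors differed little, as Dlx5 with 550 CPM and 494 CPM shows.

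**Figure D1:**
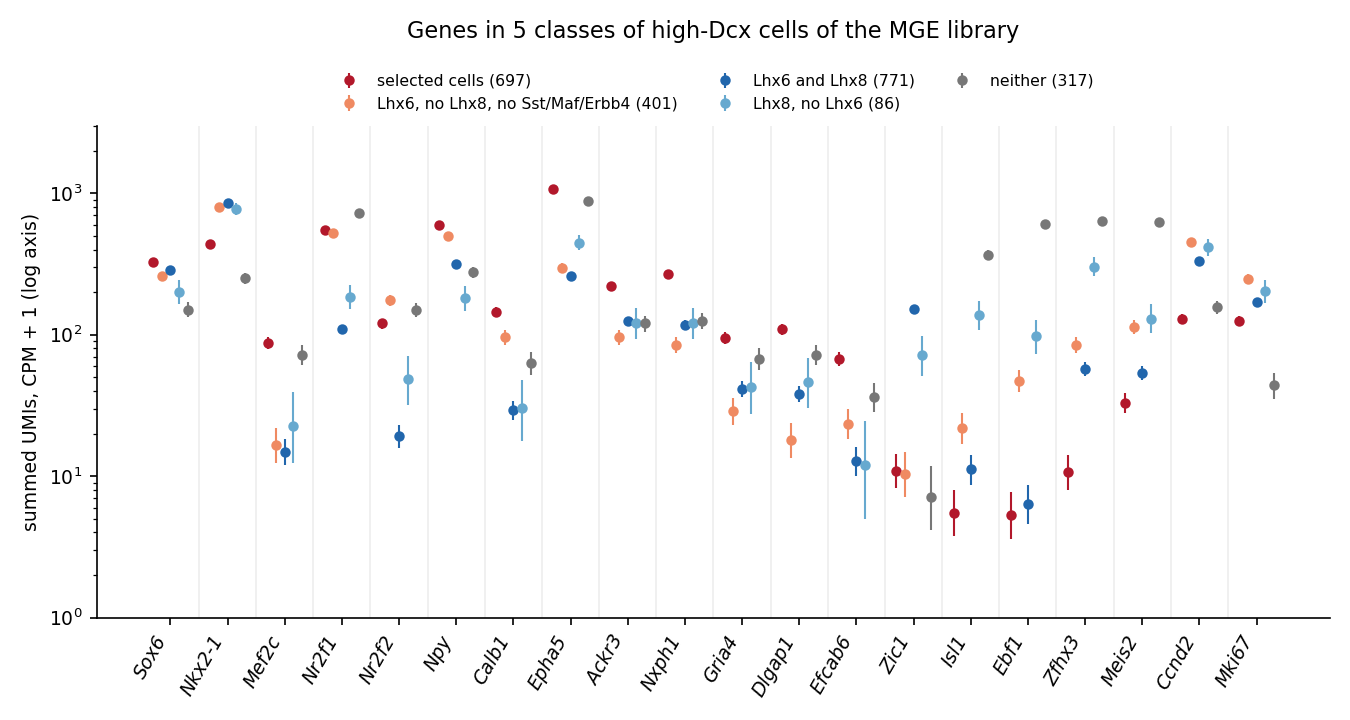
Summed UMIs (CPM + 1, log axis) of 20 genes in 5 classes of high-Dcx cells of the MGE library, with exact Poisson 95% intervals as bars. Selected cells (red) lie above the other classes for Epha5, Ackr3 and Nxph1, and below them for Isl1, Ebf1 and Meis2.

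Factors of striatal projection neurons were lower in the selected cells. Of 8 measured genes of a list for striatal projection neurons, 5 were 2-fold lower, namely Ebf1, Isl1, Meis2, Six3 and Zfp503, with a list median of -2.18. Over all genes, 1.02% were 2-fold lower and the median was 0.00. Ebf1, a factor of direct-pathway striatal neurons, had 4.28 CPM in the selected cells and 127 CPM in the others (0.0336, 0.0202–0.0527). Isl1, which works in both striatal and cholinergic neurons, had 4.50 CPM against 83.1 CPM and was found in 1.58% of selected cells and 10.1% of the others. The high level in the other cells came mainly from those without Lhx6 and Lhx8, where Ebf1 had 604 CPM and Isl1 367 CPM. Without cycling cells the log2 ratio of selected to other cells was -6.38 for Ebf1, in place of -4.60, and -5.12 for Isl1, in place of -3.93. Of 4 measured genes of a list for CGE interneurons, 0 passed 2-fold in either direction, and their median was 0.50.

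Zic1, a zinc finger factor of septal and ventral MGE neurons, had another distribution. It had 9.91 CPM in the selected cells, 9.40 CPM in the cells with Lhx6 that lacked Lhx8 and the 3 other gate genes, and 6.18 CPM in those with neither LIM gene. In cells with both Lhx6 and Lhx8 it had 151 CPM. In cells with Lhx8 alone it had 70.9 CPM, so Zic1 was high in both classes with Lhx8 and low in the 3 classes without it. Of the cholinergic and pallidal list, 3 of 13 genes reached 20 CPM. Isl1 and Zic1 were the 2 that were 2-fold lower, beside 1.02% of all genes. Chat, the acetylcholine-synthesizing enzyme, had 0 UMIs in the 697 cells, which allows a share of cells with a Chat UMI of up to 0.430% at this depth and sets no limit on cells that express it.

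Other lower genes named by size were Zfhx3, a homeobox gene with 9.68 CPM against 179 CPM, Islr2, a membrane protein of axon growth with 15.1 CPM against 118 CPM, and the class III POU genes Pou3f1 and Pou3f2. Pou3f1 had 80.8 CPM against 247 CPM (0.328, 0.293–0.366) and Pou3f2 64.4 CPM against 198 CPM (0.326, 0.287–0.369). The imprinted gene Peg10 had 16.2 CPM against 58.9 CPM, and Asb4 had 19.4 CPM against 77.4 CPM. Zfhx3 overlaps antisense and sense noncoding genes and Islr2 overlaps Islr, so their counts are uncertain.

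Peptide and calcium-binding genes were led by Npy and Calb1. Npy (chromosome 6, 49822710–49829507, plus strand), the neuropeptide Y precursor, was detected in 56.0% (52.2–59.7%) of selected cells and 36.5% (34.1–38.9%) of the others. The shares were 47.1% and 30.2% after thinning, beside 9.23% in high-Nestin cells. Its summed level was 596 CPM against 348 CPM (1.71, 1.63–1.80). Npy was thus spread over many of the cells, 26 of which held 20 or more UMIs, and the 10 highest cells held 10.7% of its UMIs.

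Calb1 (chromosome 4, 15881264–15908064, plus strand), the calcium buffer calbindin, had 144 CPM against 51.3 CPM (2.80, 2.49–3.14) and was detected in 21.7% of the selected cells. Of the 13 genes of the peptide and subtype list, Npy and Calb1 were the 2 at 20 CPM or more. Calb1 was the 1 that was 2-fold higher, beside 0.300% of all genes. Its log2 ratio was 1.47, but 0.74 when the cells were gated anew after thinning to 3000 UMIs and 0.98 with a Dcx limit of 2.0, both below 2-fold. The late subtype genes Pvalb, Vip, Cck, Nos1, Cort and Reln stayed below 20 CPM in both sums, and Cort, for instance, had 1.80 CPM.

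A few receptors for guidance cues differed 2-fold between the selected cells and the rest, in both directions. Of 16 measured genes of the migration list, Epha5 was 2-fold higher, Nrp1 and Dcc were 2-fold lower, and the list median was 0.22. Over all genes, 0.300% were higher and 1.02% lower. Epha5 (chromosome 5, 84054761–84417382, minus strand), an ephrin receptor of migrating neurons, had 1074 CPM against 389 CPM (2.76, 2.64–2.87), with a UMI in 81.2% and 47.6% of cells. Its log2 ratio was 1.46, and 0.89 with at least 2 Lhx6 UMIs. Nrp1, a semaphorin receptor, had 21.4 CPM against 68.2 CPM. The netrin receptor Dcc had 5.18 CPM against 24.0 CPM.

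The 2 receptors of the chemokine CXCL12 were unlike each other. Ackr3, the scavenging receptor, was detected in 68.0% (64.4–71.5%) of selected cells and had 220 CPM against 115 CPM (1.91, 1.76–2.08). Cxcr4, the signalling receptor of tangential migration, was detected in 5.60% (4.01–7.57%), with 35 of 39 positive cells holding a single UMI. High-Nestin cells had Cxcr4 in 4.23% at greater depth, and after thinning the shares were 2.93% in the selected cells, 0.717% in the others and 0.967% in high-Nestin cells. All 3 lay near the level of 1 UMI, so no order is read from them.

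A few synaptic genes also differed 2-fold, in both directions. Of 9 measured genes of the synapse and adhesion list, Nxph1 and Gria4 were 2-fold higher and 1 was 2-fold lower, with a median of 0.16. The shares over all genes were 0.300% and 1.02%. Nxph1 (chromosome 6, 8948431–9249032, plus strand), a secreted ligand of neurexins typical of MGE interneurons, had 268 CPM against 109 CPM (2.45, 2.26–2.66) and a UMI in 56.7% and 29.0% of cells. Gria4, an AMPA receptor subunit, had 93.4 CPM against 41.8 CPM. Dlgap1, a scaffold of the postsynaptic density, had 108 CPM against 38.5 CPM (2.80, 2.45–3.20). With at least 2 Lhx6 UMIs the log2 ratios were 0.85 for Nxph1, 0.80 for Gria4 and 0.89 for Dlgap1. Nxph1 was also below 2-fold with a Dcx limit of 2.0, at 0.99, and Gria4 when gated anew after thinning, at 0.96.

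The largest ratio among genes at 50 CPM or more belonged to a gene of no list. Efcab6 (chromosome 15, 83866712–84065379, minus strand), which encodes an EF-hand calcium-binding protein, had 66.0 CPM in the selected cells and 18.6 CPM in the others (3.55, 2.96–4.27). Its log2 ratio of 1.77 fell to 0.88 with at least 2 Lhx6 UMIs and to 0.01 when the cells were gated anew after thinning to 3000 UMIs, which turned many selected cells into comparison cells. With the gate kept and the UMIs thinned, an alternative chosen after the data were seen, it was 1.73, and the shares of cells with a UMI were 10.2% and 3.91%. Klhl32, a kelch-like gene, had 60.3 CPM against 23.0 CPM, Neb, the giant actin-binding protein nebulin, 91.8 CPM against 39.3 CPM, and Epb4.1l4a, a membrane cytoskeleton gene, 55.2 CPM against 24.1 CPM. A830082K12Rik, transcribed antisense to and overlapping Nr2f1, had 52.9 CPM against 23.2 CPM. With at least 2 Lhx6 UMIs the log2 ratios were 0.81 for Klhl32, 0.91 for Neb, 0.63 for Epb4.1l4a and 0.74 for A830082K12Rik, all below 2-fold. The uncharacterized RP24-363O16.2 had 67.8 CPM against 28.9 CPM, and since it lies within the gate gene Erbb4 its reads may be reads of Erbb4. Dlgap1, Klhl32, Neb, Ebf1, Zic1, Nkx2-1, Nr2f1, Nr2f2, Zeb2, Sox6 and Mapt have antisense neighbours, so their counts are uncertain too where strand was not used.

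**Figure D2:**
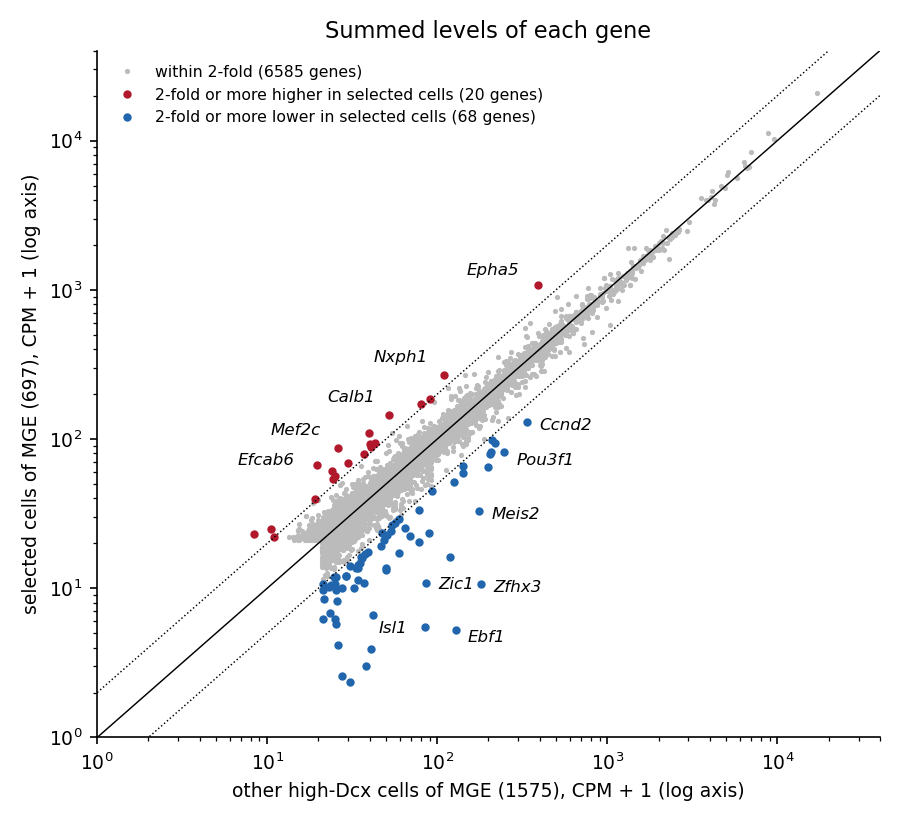
Each point is a gene at 20 CPM or more in either sum, placed by its summed level in the 1575 other high-Dcx cells (x axis) and in the 697 selected cells (y axis), both as CPM + 1 on log axes, with gate genes left out. The dotted lines mark 2-fold, with 20 genes above and 68 below, and Epha5 is the most abundant of those above.

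The GABA machinery did not separate the classes. Of 6 measured genes for GABA synthesis, transport and receptors, 0 passed 2-fold in either direction. Gad2, a GABA-synthesizing enzyme, had 459 CPM in the selected cells and 490 CPM in the others, with a UMI in 86.2% of cells of both groups. Gad1 had 228 CPM against 170 CPM.

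Some division genes were lower, and 1 maturation gene passed 2-fold. Of 14 measured progenitor and cell cycle genes, Ccnd2, E2f1 and the progenitor factor Olig2 were 2-fold lower, and the list median was -0.57. Over all genes, 0.300% were 2-fold higher and 1.02% lower, with a median of 0.00. Cyclin D2 (Ccnd2) had 129 CPM against 334 CPM (0.387, 0.353–0.422), and Mki67, a marker of dividing cells, was found in 12.9% (10.5–15.6%) of selected cells and 22.5% (20.4–24.6%) of the others. Of 15 measured maturation genes, Gap43, a growth cone protein, was 2-fold lower with 50.9 CPM against 125 CPM, and 0 were 2-fold higher, with a median of 0.17. Syt1, a synaptic vesicle protein, had 220 CPM against 133 CPM.

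A first narrower comparison asked how the selected cells differ from their nearest relatives in the gate, the 401 cells with Lhx6, without Lhx8 and with none of Sst, Maf and Erbb4. These cells had a median of 6551 UMIs, more than the 6030 of the selected cells, so the lack of the 3 genes went with greater depth. Of 6738 genes, 49 (0.727%) were 2-fold higher in the selected cells and 115 (1.71%) were lower. Dlgap1 had 108 CPM against 17.0 CPM (6.35, 4.70–8.76), Mef2c 86.7 CPM against 15.5 CPM (5.57, 4.06–7.83), and Epha5 1074 CPM against 297 CPM (3.61, 3.35–3.89). Lower were Prox1, a homeobox factor better known from CGE interneurons, with 55.6 CPM against 142 CPM, and St18, with 88.5 CPM against 235 CPM. Mki67 was found in 30.4% of those cells and in 12.9% of the selected cells, and the part of division in these ratios was not tested.

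The next comparison set the selected cells against all 857 high-Dcx cells of MGE with Lhx8, of which 771 also had Lhx6. The mantle gate described below, which asks for low progenitor and division genes, was passed by 265 of the 857 cells (30.9%). Of the selected cells, 314 (45.1%) passed it. Whether the groups differ in lineage or in stage was not tested. Of 6671 genes, 40 (0.600%) were 2-fold higher in the selected cells and 60 (0.899%) were lower. Besides Mef2c (86.7 CPM against 14.6 CPM), Efcab6 (66.0 CPM against 11.7 CPM) and Calb1 (144 CPM against 28.4 CPM), the COUP-TF orphan receptors Nr2f1 and Nr2f2 were among the 8 highest ratios. Nr2f1 had 550 CPM against 115 CPM (4.78, 4.39–5.20), and its antisense neighbour A830082K12Rik 52.9 CPM against 8.11 CPM (6.52, 4.79–9.03). Nr2f2 had 119 CPM against 20.8 CPM (5.71, 4.70–6.98). COUP-TF genes are known for caudal and for cortex-bound interneurons, and here they were not particular to the selected cells, since cells with Lhx6 that lacked Lhx8 and the 3 other gate genes had 522 CPM of Nr2f1 and 174 CPM of Nr2f2.

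On the Lhx8 side, Zic1 had 144 CPM against 9.91 CPM in the selected cells, for a ratio of 0.0688 (0.0496–0.0932) of selected over Lhx8 cells. Pou3f2 had 64.4 CPM in the selected cells against 267 CPM, and Mbip, which lies near Nkx2-1 on chromosome 12, 58.3 CPM against 174 CPM. Rrm2, a ribonucleotide reductase subunit of dividing cells, had 78.1 CPM against 228 CPM, a log2 ratio of -1.53 that was -0.66 without cycling cells, and Ccnd2 129 CPM against 340 CPM. In the same comparison 3 of 15 maturation genes were 2-fold higher in the selected cells, and these were Ina, Rbfox3 and Syt1. Ina, a neuronal filament protein, had 365 CPM against 163 CPM. Of 16 migration genes, Epha5, Epha3 and the neurotrophin receptor Ntrk2 were 2-fold higher, Nrp1 and Dcc were 2-fold lower, and the list median was 0.13. Over all genes, 0.600% were higher and 0.899% lower. Ntrk2 had 51.8 CPM against 24.2 CPM. Npy at 596 CPM against 303 CPM (1.97, 1.86–2.09) stayed just inside 2-fold.

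Similarity over many genes was read from the 20 nearest neighbours of each cell, with the 6 gate genes left out of the 2000 variable genes used. Of the neighbours of selected cells, 49.8% were selected cells, who make up 30.6% of the cells, a factor of 1.62. Cells with both Lhx6 and Lhx8 gave 21.8% of the neighbours and 33.9% of the cells, and cells of neither LIM gene gave 11.4% and 14.0%. For 420 selected cells (60.3%) at least 10 of the 20 neighbours were selected cells, and for 3 cells there were none. The selected cells thus had neighbours of every class, and most often of their own. This was not particular to them, since cells of every class were enriched among their own neighbours. The factor was 1.85 for cells with Lhx6 that lacked Lhx8 and the 3 other gate genes. For cells with both LIM genes it was 1.76, for those with Lhx8 alone 1.79 and for those with neither 2.83, all above 1.62. Classes set by single UMIs can mix when a UMI is missed, so the shares of neighbours cannot tell a continuous range from separate groups.

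Within the selected cells, the 43 with Sst were compared with the 654 without. The cells with Sst held 294974 UMIs in all, at a median of 6706 per cell beside 6028. With so few cells, counting error is wide, and of 7148 genes 401 (5.61%) were 2-fold higher and 325 (4.55%) were lower, of which 318 and 186 had an interval clear of 1. Chd5, a chromatin remodeller of neurons, and Negr1, a neuronal adhesion protein, had the largest ratios among the genes named by size. Chd5 had 105 CPM against 13.5 CPM and Negr1 214 CPM against 28.5 CPM. Gria2, an AMPA receptor subunit, had 370 CPM against 82.7 CPM (4.47, 3.57–5.56), and Gria1 64.4 CPM against 8.92 CPM (7.22, 3.92–12.9). Of 13 measured synapse and adhesion genes, 8 were 2-fold higher and 0 lower, with a median of 1.14 beside 0.03 over all genes. Of the 43 cells with Sst, 30 passed the mantle gate described below, which 314 of the 697 selected cells passed. The part of maturation in the ratios of this split was not tested.

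The microtubule protein tau (Mapt) had 905 CPM against 232 CPM (3.90, 3.39–4.47), and the receptor Nrp2 108 CPM against 15.9 CPM (6.82, 4.32–10.5). The log2 ratio of Nrp2 was 2.69, but 1.59 when gated anew after thinning and 1.84 without cycling cells. Lower were Ccnd2, with 27.1 CPM against 136 CPM, Pou3f1, with 17.0 CPM against 85.4 CPM, and the growth factor midkine (Mdk), with 27.1 CPM against 146 CPM. With no upper limit on genes per cell the log2 ratio was -0.96 for Mdk, below 2-fold, in place of -2.39, and -1.09 for Ccnd2 in place of -2.29. Npy differed little, with 681 CPM against 590 CPM (1.15, 0.995–1.33), as did Sox6 and Mef2c. Hbb-y had 23.7 CPM in the Sst cells and 58.8 CPM in the rest, and its part in these results was not tested.

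Cells split by Maf or by Erbb4 differed in other genes. Of 6831 genes, 46 (0.673%) were 2-fold higher and 62 (0.908%) lower in the 583 cells with Maf than in the 114 without, and cells without Maf had entered through Erbb4 or Sst. Calb1 was lower in cells with Maf, at 91.2 CPM against 404 CPM (0.226, 0.193–0.265), and so was Nr2f2, at 94.9 CPM against 236 CPM (0.402, 0.335–0.485). For the 403 cells with Erbb4 against the 294 without, 32 of 6737 genes (0.475%) were higher and 41 (0.609%) lower. There Calb1 was higher, with 205 CPM against 61.1 CPM (3.36, 2.74–4.15), and Ntrk2 had 68.8 CPM against 29.0 CPM. Ccnd2 was lower in cells with Erbb4, at 86.5 CPM against 186 CPM. Since a cell without Maf had to hold Erbb4 or Sst to be selected, these splits are not independent of each other.

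Division cut across the selected cells. Mki67 was present in 90 of them, and 314 (45.1%) passed a mantle gate that asks for Nes, Hes5, Mki67, Ccnd1 and Ccnd2 below 0.5. The dividing cells had a median of 7850 UMIs and the mantle-gated ones 5850. Of 6906 genes, 227 (3.29%) were 2-fold higher in mantle-gated cells and 432 (6.26%) were lower, and since Mki67 and Ccnd2 set the groups, cell cycle genes are not read here. The gate gene Lhx6, given as a description, had 446 CPM in mantle-gated and 423 CPM in dividing cells. Nkx2-1 had 332 CPM against 620 CPM (0.535, 0.474–0.605).

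Of 9 measured synapse and adhesion genes, 6 were 2-fold higher in mantle-gated cells and 0 lower, with a median of 1.01 beside 0.04 over all genes, and of 15 maturation genes 5 were higher and 0 lower. Nxph1 had 360 CPM against 130 CPM (2.78, 2.25–3.46), Mapt 378 CPM against 135 CPM, and Rbfox3, the nuclear neuronal protein NeuN, 39.5 CPM against 5.19 CPM (7.62, 2.85–28.7). The genes that led over the other MGE cells were present in both states. Epha5 had 603 CPM in dividing and 1377 CPM in mantle-gated cells, and Mef2c 66.1 CPM and 123 CPM.

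**Figure D3:**
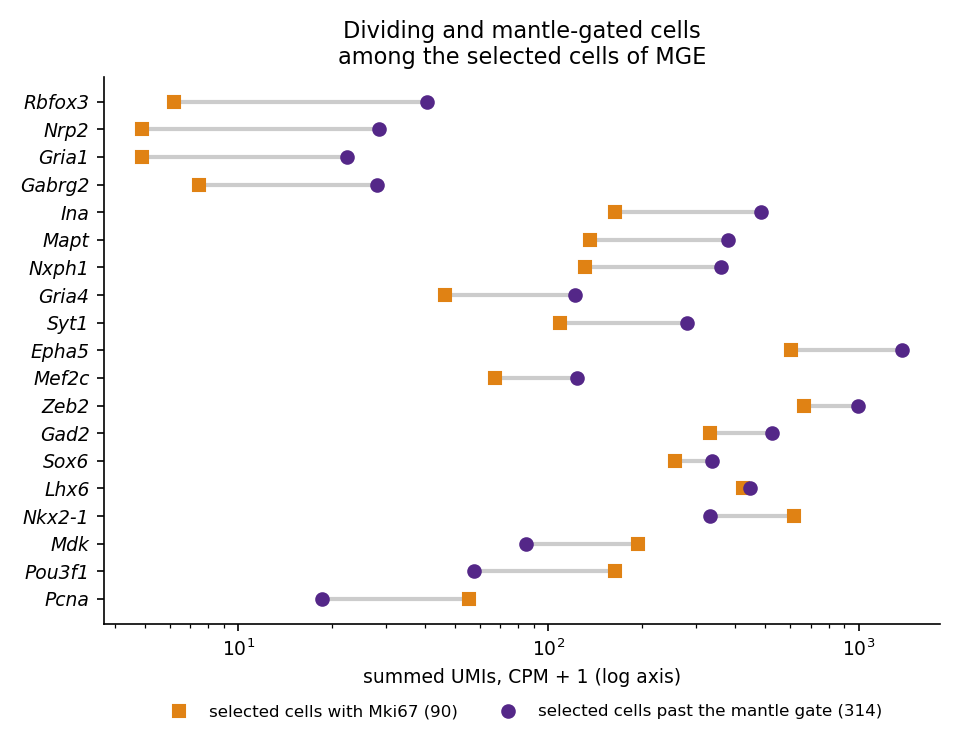
Summed UMIs (CPM + 1, log axis) of 19 genes in the 90 selected cells with Mki67 (squares) and the 314 past the mantle gate (circles), from 1 library. Neuronal genes such as Rbfox3, Mapt and Nxph1 lie farther right in mantle-gated cells, and Nkx2-1, Mdk and Pou3f1 lie farther left.

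The same gate was then applied to the other libraries, where Lhx6 cells are known to arrive by migration. It took 144 cells in LGE, or 6.55% (5.55–7.67%) of 2198 high-Dcx cells, 479 in CGE, or 20.6% (18.9–22.3%) of 2330, and 44 in CTX, or 5.39% (3.94–7.17%) of 816. Median depths were 6118, 6639 and 5746 UMIs, close to the 6030 of the MGE cells.

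Sst, a gate gene, is given as a description and no finding. It was detected in 6.17% of the MGE cells, 54.2% (45.7–62.5%) of the LGE cells, 37.2% (32.8–41.7%) of the CGE cells and 81.8% (67.3–91.8%) of the CTX cells, and thinned shares were 5.27%, 50.7%, 32.2% and 75.0%. Its summed level was 142 CPM in MGE against 2045 CPM in LGE, 1479 CPM in CGE and 1376 CPM in CTX. The MGE cells with Sst also held less of it, with a median of 4.00 UMIs per positive cell beside 14.5 in LGE. High-Nestin cells had Sst in 0.340% of cells in LGE and 1.82% in CGE. Among mantle-gated cells alone, a choice made after the values were seen, the Sst share was 9.55% (6.54–13.4%) of 314 MGE cells, 48.9% (38.3–59.6%) of 92 LGE cells and 38.6% (33.1–44.3%) of 306 CGE cells.

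**Figure D4:**
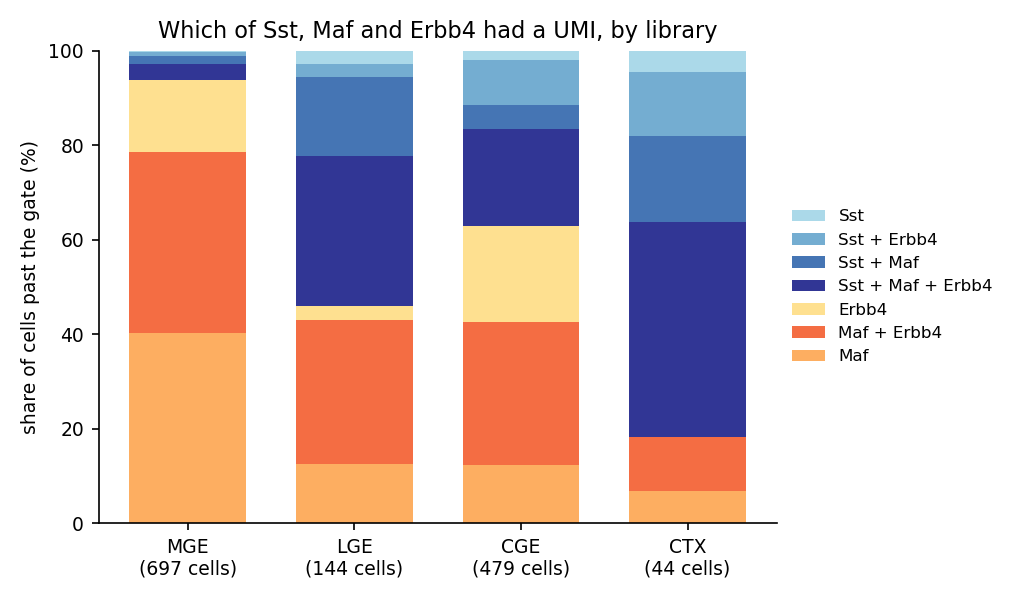
Stacked bars give the share (%) of cells past the gate that held each combination of Sst, Maf and Erbb4 UMIs, for 697 MGE, 144 LGE, 479 CGE and 44 CTX cells. Combinations with Sst (blue) make up 6.17% of the MGE bar and 81.8% of the CTX bar.

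Other interneuron genes were ordered differently among the libraries. Nxph1 was detected in 56.7% (52.9–60.4%) of the MGE cells, 90.3% in LGE, 81.2% in CGE and 95.5% in CTX. Mef2c was detected in 24.8% (21.7–28.2%) in MGE, 49.3% in LGE, 53.7% in CGE and 79.5% in CTX. For both genes the MGE interval lay below the other 3. Npy was not ordered this way, with 56.0% (52.2–59.7%) in MGE, 66.7% (58.3–74.3%) in LGE, 47.4% (42.8–52.0%) in CGE and 31.8% (18.6–47.6%) in CTX, so that MGE and LGE were overlapping neighbours.

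Nkx2-1 ran the other way. It had a UMI in 64.8% (61.2–68.4%) of the MGE cells, 11.8% (7.03–18.2%) in LGE, 20.3% (16.7–24.1%) in CGE and 2.27% in CTX, or 1 of 44 cells. Its summed levels were 434 CPM, 34.5 CPM, 74.7 CPM and 4.19 CPM. Sox6 by contrast had 325 CPM, 301 CPM, 244 CPM and 201 CPM in the same order.

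**Figure D5:**
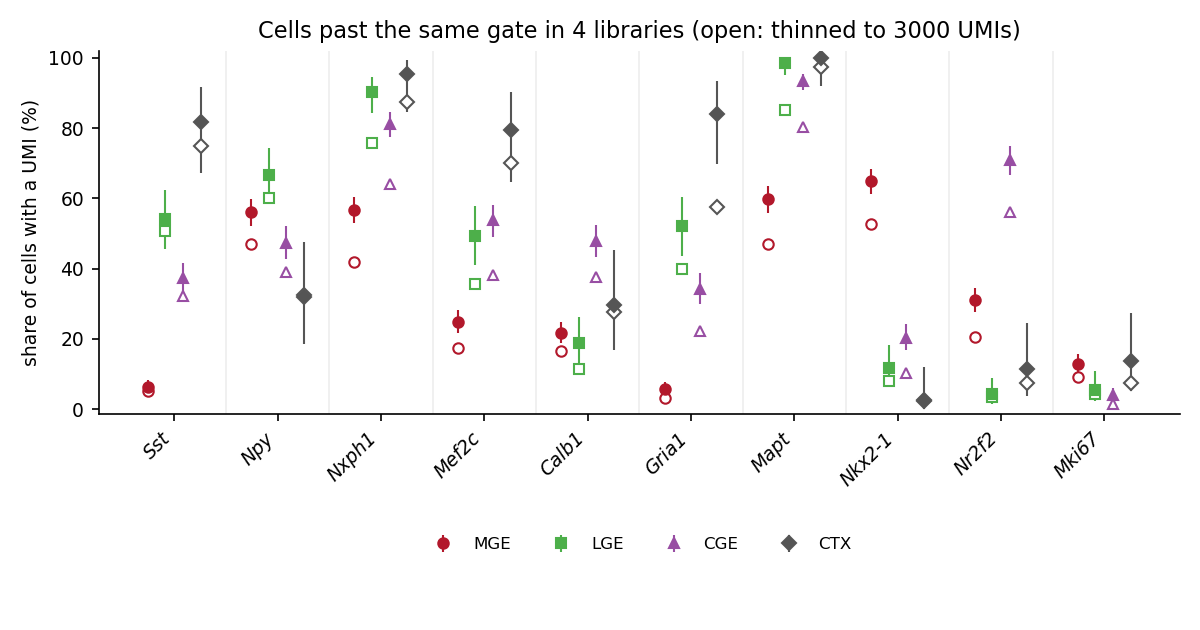
Share of cells past the gate with a UMI (%) for 10 genes in the 4 libraries, with exact binomial 95% intervals at the cells' own depth (filled) and after thinning to 3000 UMIs (open). MGE (circles) is lowest for Sst, Nxph1, Mef2c, Gria1 and Mapt and highest for Nkx2-1.

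Over all genes, the MGE cells differed from the CGE cells of the same gate in 173 of 6831 genes (2.53%) that were 2-fold higher and 170 (2.49%) that were lower. The shares of dividing cells differed too, since Mki67 was found in 12.9% of MGE and 3.97% of CGE cells. Of 10 measured progenitor and cell cycle genes, 6 were 2-fold higher in MGE. Among them were Mki67, with 124 CPM against 6.41 CPM, and Top2a, a topoisomerase of dividing cells, with 262 CPM against 14.3 CPM (18.3, 13.6–25.0). The part of the share of dividing cells in these ratios was not tested. The log2 ratio of Top2a was 4.10, but 3.05 when gated anew after thinning, 2.48 with a Dcx limit of 2.0 and 2.41 with no upper limit on genes per cell. For Mki67 it was 4.08, and 2.82, 2.75 and 2.15 in the same order. Nkx2-1 (5.81, 5.09–6.67), the ETS factor Etv1 (4.98, 3.86–6.51) and the plexin Plxna4 (5.19, 3.98–6.87) were higher in MGE as well. Their lists went both ways. Of 19 measured MGE and pan-GABAergic factors, 2 were 2-fold higher and 2, Mef2c and Npas1, were lower. Of 16 measured migration genes, 3 were higher and 4 were lower, namely Cxcr4, Epha5, Nrp1 and Nrp2.

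Synapse and adhesion genes and some maturation genes were lower in MGE. Of 13 measured synapse and adhesion genes, 7 were 2-fold lower and 0 higher, with a median of -1.03 beside -0.01 over all genes. Gria1 had 12.6 CPM against 112 CPM (0.112, 0.0832–0.149). Of 15 maturation genes, Gap43, Ina, Mapt and Rbfox3 were lower, with Mapt at 277 CPM against 851 CPM. Nr2f2 had 119 CPM against 467 CPM (0.254, 0.229–0.280), and Nr2f1 550 CPM against 1343 CPM. Hbb-y, a red blood cell gene, had 56.5 CPM in MGE and 11.3 CPM in CGE cells, and its part in other genes was not tested.

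Against the LGE cells of the gate, 233 of 6955 genes (3.35%) were 2-fold higher in MGE and 257 (3.70%) were lower. Nkx2-1 (12.6, 8.84–18.6), Nr2f2 (9.69, 5.37–19.5), Prox1 (9.99, 4.22–31.0) and Sox5, an SRY-box factor with 161 CPM against 14.5 CPM, were higher. The ephrin receptor Epha4 had 909 CPM against 202 CPM (4.51, 3.89–5.26). Of 16 measured migration genes, 6 were 2-fold higher in MGE and 2, Cxcr4 and Epha5, were lower. Of 14 synapse and adhesion genes 9 were lower and 0 higher, with a median of -1.20 beside -0.02 over all genes. Nxph2, the relative of Nxph1, had 2.48 CPM against 92.4 CPM (0.0268, 0.0129–0.0505), and Gria1 12.6 CPM against 186 CPM (0.0678, 0.0492–0.0923). Npy had 596 CPM against 1244 CPM (0.479, 0.447–0.515) and Mapt 277 CPM against 843 CPM.

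Mantle-gated cells, which lack Mki67 and Ccnd2, had differences of the same direction. Among cells past that gate Gria1 levels were 21.4 CPM (MGE), 204 CPM (LGE) and 124 CPM (CGE). Mapt had 378 CPM, 849 CPM and 895 CPM, and Nxph1 360 CPM, 696 CPM and 513 CPM in the same order. Nkx2-1 had 332 CPM, 42.2 CPM and 77.2 CPM.

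Last, the genes that separated the selected cells inside MGE were looked up in the LGE and CGE libraries. The cells of the gate there were set against the other high-Dcx cells of the same library. Since the same gate chose these cells, and most of the others there lack Lhx6, the counts are a description and no independent support. In LGE, 353 of 7098 genes (4.97%) were 2-fold higher and 500 (7.04%) lower in the cells of the gate, and in CGE 82 of 6898 (1.19%) and 210 (3.04%). Of the 20 genes that were higher in MGE, 19 were measured in each library, and 18 of 19 were 2-fold higher in LGE and 18 of 19 in CGE. These include RP24-363O16.2, whose reads may be reads of the gate gene Erbb4, and without it the counts were 17 of 18 in both. Epha5 had a ratio of 8.30 (7.89–8.74) in LGE and 2.97 (2.89–3.05) in CGE, and Mef2c 4.26 (3.61–5.02) and 2.89 (2.63–3.18). Efcab6 had 23.4 CPM against 1.37 CPM in LGE and 66.2 CPM against 11.2 CPM in CGE.

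Of the 68 genes that were lower in MGE, 54 of 61 measured were 2-fold lower in LGE and 38 of 49 in CGE, and 0 went the opposite way in either library. Ebf1 had a ratio of 0.0418 (0.0262–0.0633) in LGE and 0.0864 (0.0626–0.116) in CGE. The cells outside the gate are of other kinds there, since 1944 of 2054 in LGE and 1696 of 1851 in CGE had neither Lhx6 nor Lhx8. Npy separated the gate more in LGE than in MGE, with 1244 CPM against 33.0 CPM in LGE and 596 CPM against 348 CPM in MGE.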

How the data were processed

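The deposited matrices hold UMI counts per gene and barcode, which the authors made with Cell Ranger under default parameters on mm10 (GRCm38). The file headers name version 3.0.2 and the submitters' processing notes 3.0.0. The annotation release and the use of strand in counting are not given in the sources used here. Of 43346 features, 42462 were matched by ID to GENCODE M21 for positions, and promoter sequences were taken from RefSeq.

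Barcodes with more than 1500 and fewer than 4500 genes, under 5% mitochondrial UMIs and under 1% Hbb- UMIs were kept. High-Dcx and high-Nestin cells exceeded 1.5 on the ln(1 + UMIs per 10000) scale of Dcx or Nes. Doublets were not removed in the main values, and removal by simulated doublets was an alternative. The selected cells and the gene lists were chosen with earlier results of these data known.

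UMIs were summed over cells and divided by the total. Genes at 20 CPM or more in either sum were compared, gate genes left out, and called at 2-fold of (CPM + 1). Printed ratios are of CPM without this addition, with exact conditional Poisson 95% intervals, and shares have exact Clopper-Pearson 95% intervals. A count of 0 was read as at most 3 counts. Shares were repeated on cells thinned to 3000 UMIs. Neighbours came from 30 principal components of 2000 variable genes. With 1 library per region no p-value was computed. Named genes were the gate genes, the listed genes, and, at 50 CPM or more with intervals clear of 1, the 12 highest and 12 lowest ratios against the other MGE cells, the 8 and 8 against Lhx8 cells, and the 6 and 6 of the other comparisons. Alternatives changed the thinning, the Dcx and Lhx6 limits, doublets, non-neural cells, the upper gene limit, cycling cells, size factors, the minimum level and the pseudocount. A few genes counted in the lists are not reported here by name. The sums and intervals were tested on simulated Poisson counts, for which Poisson intervals hold by construction. UMIs clumped in a few cells, as those of Sst were, were not simulated. The intervals of ratios therefore do not include the spread among cells. Python 3.11.15, numpy 2.4.6, scipy 1.17.1, pandas 2.3.3, scikit-learn 1.9.0 and matplotlib 3.10.9 were used.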

Additional observations from a re-analysis of the deposited data

How the results depend on the processing

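The selected cells were 30.7% of high-Dcx cells of MGE, and 22.0% after thinning to 3000 UMIs, 27.2% with Dcx above 1.0, 36.3% with Dcx above 2.0, 21.3% with at least 2 Lhx6 UMIs and 36.8% without cycling cells. Over settings in which the cells were gated anew, the share with Sst was between 5.83% and 9.13% in MGE, 51.3% and 60.2% in LGE, and 36.7% and 39.6% in CGE. Counts of genes past 2-fold depended on the settings. Thinning gave 103 lower genes against the other MGE cells, 89 higher and 130 lower against Lhx8 cells, 1037 and 973 between cells with and without Sst, and 492 higher than in LGE. A Dcx limit of 1.0 gave 93 lower against Lhx8 cells, and one of 2.0 gave 10 higher against the other MGE cells and 100 higher than in CGE. With at least 2 Lhx6 UMIs, 2 genes were higher than in the other MGE cells, and without cycling cells 67 were higher than in CGE. With no minimum level there were 67 higher and 365 lower against the other MGE cells, 172 and 290 against Lhx8 cells, 1357 and 2261 for Sst, 608 and 629 for CGE, and 1302 and 1166 for LGE. With a 50 CPM minimum there were 27 lower against the other MGE cells, 20 lower against Lhx8 cells, 141 and 82 for Sst, 74 and 79 for CGE, and 94 and 101 for LGE. A pseudocount of 10 CPM gave 9 and 38, 19 and 26, and 158 and 152 in the first 3 comparisons, 88 lower than in CGE, and 145 and 146 for LGE. A higher minimum tests fewer genes and a larger pseudocount shrinks low genes by construction, and the other causes were not tested. Of 828 log2 ratios of named genes recomputed over 11 alternatives, 640 stayed within their counting interval, 188 moved beyond it and 0 changed direction. Sums of thinned cells with the gate kept, chosen after the data were seen, left 11 of 12 named higher genes past 2-fold, with Epb4.1l4a at 0.99, while with at least 2 Lhx6 UMIs 1 of 12 stayed. Size factors shifted the median log2 ratio by -0.028 to 0.022. No paired analysis was possible because each region has 1 library. Depth limits genes near 1 UMI per cell, such as Cxcr4, and the variation among embryos is unknown.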

Other observations

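Several genes of the interneuron lineage had like summed levels in cells past the gate in all 4 libraries. Zeb2 had 900 CPM in MGE, 872 CPM in LGE, 864 CPM in CGE and 923 CPM in CTX. Gad2 had 459 CPM, 557 CPM, 511 CPM and 386 CPM. Satb1 by contrast had 156 CPM, 212 CPM, 287 CPM and 348 CPM in the same order. Region and library cannot be told apart for any of these values.

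Guidance and adhesion genes had the opposite order in part. The ephrin receptor Epha4 had 909 CPM in MGE, 202 CPM in LGE, 349 CPM in CGE and 25.2 CPM in CTX, and Rnd3, a small GTPase of migrating neurons, 250 CPM, 75.7 CPM, 159 CPM and 58.7 CPM. Nxph2 had 2.48 CPM in MGE and 306 CPM in CTX, and Chl1, a cell adhesion molecule, 4.73 CPM and 315 CPM. The peptide precursor Tac1 had 3.15 CPM in MGE, 30.1 CPM in LGE, 15.9 CPM in CGE and 88.1 CPM in CTX. The CTX values rest on 44 cells and 238432 UMIs.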
